A study of Mus musculus with 12 samples.

Results

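The Iroquois genes of the mouse, Irx1 to Irx6, were described here for trimethylation of histone H3 at lysine 27 (H3K27me3) in epidermis with and without Utx. The 6 genes were taken by name, with their RefSeq coordinates on GRCm38, from 21631 protein-coding genes on chromosomes 1 to 19 and X. They lie in 2 clusters. IrxA on chromosome 13 holds Irx1, Irx2 and Irx4, and IrxB on chromosome 8 holds Irx3, Irx5 and Irx6. All peaks over the span of a cluster and 50 kb on either side of it were included, which gave a window of 1411 kb for IrxA (chr13:71908232-73319622) and of 982 kb for IrxB (chr8:91748511-92730956).

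H3K27me3 is the repressive mark of Polycomb repressive complex 2, and Utx (Kdm6a) is an X-linked enzyme that can remove it. Utx-cKO animals were Cre+; Utx fl/fl, with Krt14-Cre active where keratin 14 is expressed, and WT animals were Cre-; Utx fl/fl, so both groups carried the floxed alleles and both were female. Each group had 3 animals, and each animal gave an H3K27me3 and an IgG library by CUT&RUN (antibody-targeted nuclease release of chromatin), 12 libraries in all. No age of the animals was found in the labels, and cells of the epidermis that never express keratin 14 would keep Utx.

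The data were 2 peak lists, 1 per genotype, each called on the merged libraries of its group: 8914 peaks in Utx-cKO and 7826 in WT. No value has a replicate error and no test between genotypes was possible, so values are given side by side, and sequencing depth is unknown. Signal values are the authors' scores of each peak and were ranked within a list. The one step that sets them across lists is the comparison with the lowest WT total signal, which assumes a shared signal scale that no source states, and which can remove Utx-cKO peaks only. A percentile is the share of peaks in the same list with the same or a lower score. The basal keratinocyte genes Krt5, Krt14, Trp63 and Itga6 and the suprabasal genes Krt1 and Krt10 had no peak at their start in either list. A peak list measures the mark and not expression. Most protein-coding genes lacked a peak at the start as well, the share with one being 15.7% (Utx-cKO) and 14.6% (WT). The absence of peaks at these keratinocyte genes therefore cannot check the labelled cell type. Of the markers of other cell types that a suspension may hold, the fibroblast genes Pdgfra and Col1a1 and the T cell gene Cd3e were marked in both lists and the Langerhans cell gene Cd207 in Utx-cKO, although the 100 kb around Cd207 was covered over 82.8% in Utx-cKO and 82.9% in WT. Mitf (melanocytes) and Pecam1 (endothelium) had no cover, and Ptprc (leukocytes) and Dct (melanocytes) had none at the start but 14.4% and 33.7% of the body covered in Utx-cKO and 16.6% and 36.3% in WT. Fewer marked cells and less mark per cell cannot be told apart in such pooled material.

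Iroquois proteins are transcription factors with a homeodomain of the TALE class, which has a loop extension of 3 residues. They pattern the neural plate, heart, limb and retina, and in mammals the clusters arose by duplication, so that Irx1 corresponds to Irx3, Irx2 to Irx5 and Irx4 to Irx6. The genes are short and are separated by long stretches without other protein-coding genes, which are known to hold enhancers. Genes of this kind are common targets of Polycomb complexes in tissues that do not use them.

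Promoter sequences from RefSeq (GRCm38.p6, 250 bases before to 50 after the start) were matched for Irx2, Irx3 and Irx4. They are shown because the 3 genes differed in where the nearest peak lay. Capitals mark CG dinucleotides, the target of the CpG-binding proteins that help to place Polycomb complexes at promoters. Irx2 is shown from chr13:72628570-72628869 (plus strand), Irx3 from chr8:91801605-91801904 (minus strand) and Irx4 from chr13:73260247-73260546 (plus strand), each 5′ to 3′.
Irx2: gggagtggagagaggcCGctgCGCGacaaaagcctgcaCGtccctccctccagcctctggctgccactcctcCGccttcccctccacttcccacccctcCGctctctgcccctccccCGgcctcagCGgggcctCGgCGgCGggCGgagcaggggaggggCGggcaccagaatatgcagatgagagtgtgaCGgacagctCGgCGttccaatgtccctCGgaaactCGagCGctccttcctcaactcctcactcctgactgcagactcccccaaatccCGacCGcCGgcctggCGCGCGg
Irx3: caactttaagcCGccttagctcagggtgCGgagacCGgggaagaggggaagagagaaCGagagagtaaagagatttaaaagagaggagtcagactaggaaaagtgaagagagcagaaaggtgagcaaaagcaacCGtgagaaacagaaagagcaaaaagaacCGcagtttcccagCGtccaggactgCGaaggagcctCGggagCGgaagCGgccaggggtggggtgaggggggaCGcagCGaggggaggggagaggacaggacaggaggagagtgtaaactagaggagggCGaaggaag
Irx4: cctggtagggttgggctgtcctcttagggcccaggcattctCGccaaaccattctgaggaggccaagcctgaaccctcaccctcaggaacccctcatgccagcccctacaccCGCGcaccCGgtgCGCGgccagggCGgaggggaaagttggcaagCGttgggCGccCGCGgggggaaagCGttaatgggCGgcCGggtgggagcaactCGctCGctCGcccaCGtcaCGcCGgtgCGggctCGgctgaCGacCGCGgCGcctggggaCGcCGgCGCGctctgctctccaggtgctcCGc

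The number of CG dinucleotides was above the median in the promoters of Irx2, which had no peak near it, and of Irx4, and close to it in that of Irx3. The Irx2 promoter held 25 CG dinucleotides (percentile 77.2 by number), with a ratio of observed to expected of 0.723 (percentile 63.2 of 21045 promoters of protein-coding genes). The Irx3 promoter held 14 (percentile 52.7 by number), with a ratio of 0.748 (percentile 65.9). The Irx4 promoter held 31 (percentile 87.3 by number), with a ratio of 0.828 (percentile 74.9). The median promoter had 13 CG dinucleotides and a ratio of 0.574. Among autosomal promoters with a ratio of at least 0.6, 12.7% had a peak within 2 kb of the start in Utx-cKO and 11.8% in WT. Among those below 0.6 the shares were 12.3% in Utx-cKO and 11.5% in WT. Motifs were searched on both strands. TATAAA, the TATA box, was in none of the 3 promoters and in 12.7% of all. CCAAT was found 1 time in Irx2, and 38.5% of promoters hold it. GGGCGG, a GC box, was found 2 times each in Irx2 and Irx4, and 46.7% of promoters hold it.

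In both genotypes the mark lay at Irx1, Irx3, Irx4 and Irx6, and was missing from Irx2. The call of a marked gene required a peak no more than 2 kb from its transcription start, or from either annotated end for genes matched to no start (Irx1, Irx5 and Irx6). By this rule Utx-cKO had 5 of the 6 genes marked, where the share of all protein-coding genes was 15.7%, and WT had 4 of 6, where it was 14.6%. The gene that differed was Irx5. Its call in Utx-cKO rests on its upper annotated end (92361456), and which end is its start was not known here. With a peak required on the start or end itself (0 bp), only Irx5 and Irx6 were marked in Utx-cKO and only Irx3 and Irx6 in WT, so the calls of Irx1 and Irx4 in both genotypes, and of Irx3 in Utx-cKO, rest on the 2 kb allowed. With the same floor of total signal for both lists (the lowest WT value, 40307), with equal numbers of peaks, or with the stronger 50% of each list, the same 4 genes were marked in both genotypes.

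Irx1 acts in heart, lung, kidney and limb development. Its 5492 bp (chr13:71958232-71963723) had no peak in either list, and a peak began just beyond the upper border, 228 bp away in Utx-cKO and 178 bp away in WT. The Utx-cKO peak was 12850 bp wide (chr13:71963951-71976800), with a total signal of 177226 (rank 1361, percentile 84.7 of its list) and a maximum of 40.4 (percentile 88.8). The WT peak was 38800 bp wide (chr13:71963901-72002700), with a total signal of 267823 (rank 686, percentile 91.2) and a maximum of 52.7 (percentile 93.0). The shared border differed by 50 bp, which is 1 step of the grid on which all borders lie. The strongest bin lay 3728 bp from the gene in Utx-cKO and 4228 bp in WT. The WT domain was continuous where the Utx-cKO list had a pair of peaks separated by a gap of 1900 bp, the second being 16500 bp wide at percentile 37.4.

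Irx2 is the middle gene of IrxA, expressed in the developing limb and nervous system. Its 9767 bp (chr13:72624430-72634196) held no peak, and in neither list did any peak cover a base of the 100 kb around its start. The nearest peak was 64155 bp from the gene in Utx-cKO, a weak one of 10850 bp at percentile 7.90 of its list (chr13:72698351-72709200), and 247280 bp away in WT. Irx2 lay within the longest peak-free stretch of the window, which measured 373 kb in Utx-cKO and 729.55 kb in WT.

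Irx4, a factor of the heart ventricles, had almost the same peak in both genotypes. It covered 87.9% of the gene (chr13:73259589-73269622) in each. The Utx-cKO peak (chr13:73260801-73276950) was 16150 bp wide, with a total signal of 113815 (percentile 71.6) and a maximum of 21.4. The WT peak (chr13:73260801-73276800) was 16000 bp wide, with a total signal of 111682 (percentile 67.6) and a maximum of 24.7. Both peaks began 304 bp after the transcription start, so the promoter sequence above was free of them, and their strongest bins lay beyond the far end of the gene, by 2529 bp in Utx-cKO and 2579 bp in WT.

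**Figure D1:**
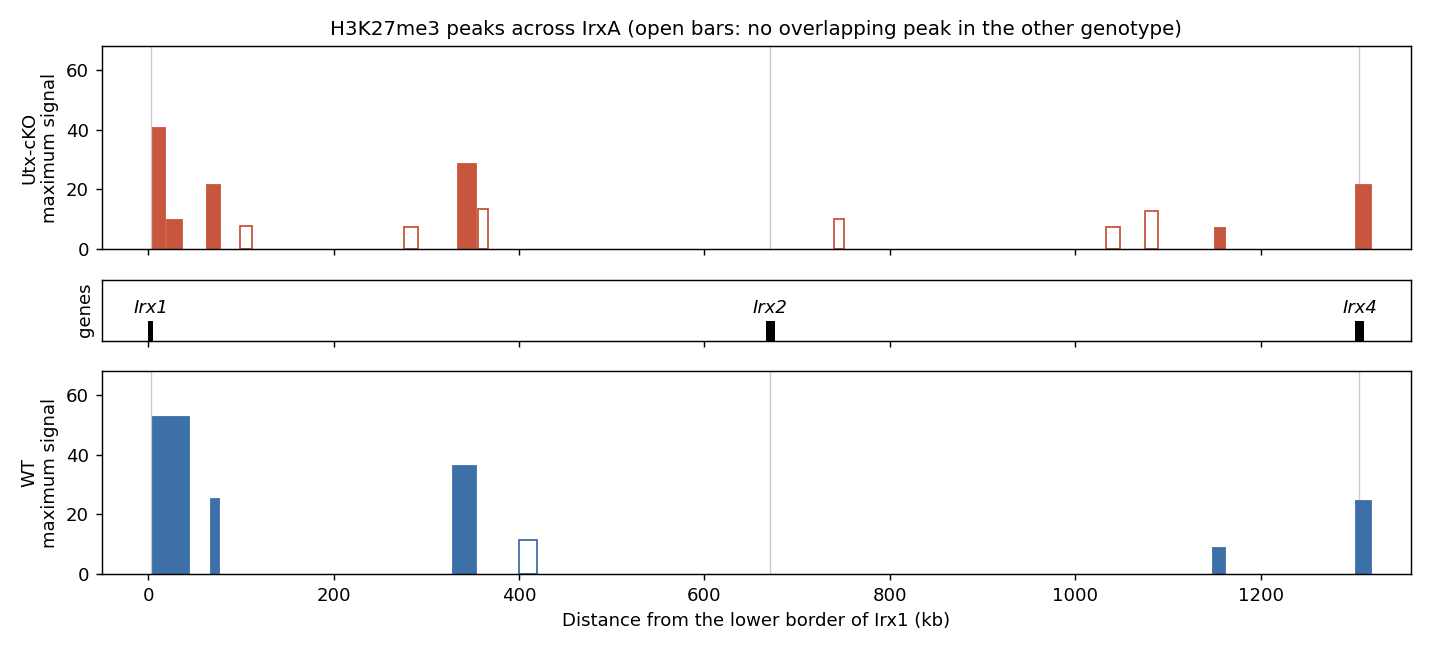
H3K27me3 peaks over the IrxA window, with distance from the lower border of Irx1 (kb) on the x axis and the maximum signal of each peak, on the scale of its own list, on the y axis; Utx-cKO is above the genes and WT below. Filled bars overlap a peak of the other genotype and open bars do not. Irx1 and Irx4 have a peak at the same place in both, and Irx2 has none. Open bars are 6 of 12 Utx-cKO peaks and 1 of 6 WT peaks. Over the whole lists, 78.4% of Utx-cKO peaks and 88% of WT peaks overlap a peak of the other list.

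Irx3 acts in limb, heart and hypothalamus, and an obesity-associated region inside the neighbouring gene Fto contacts its promoter. Its body (chr8:91798511-91801654) was free of the mark apart from 4 bp in WT. A peak lay on the promoter side, over the antisense gene Irx3os. In Utx-cKO it spanned chr8:91803001-91810050 (7050 bp, total signal 73339, percentile 55.0), and in WT it spanned chr8:91801651-91810050 (8400 bp, total signal 81562, percentile 54.5). The outer border was identical and so was the strongest bin, 5497 bp from the gene, with a maximum of 28.4 in Utx-cKO and 29.1 in WT. The inner border stood 1347 bp short of the transcription start in Utx-cKO and reached the start in WT, so that 0 of the 300 promoter bases shown above lay under a peak in Utx-cKO and 254 in WT. Both peaks were narrow for their lists, at width percentiles 4.04 in Utx-cKO and 6.34 in WT.

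Irx5 acts with Irx3 in heart and limb and is needed for cone bipolar cells of the retina. It was the gene whose call differed. In Utx-cKO a peak of 10950 bp (chr8:92360601-92371550) covered 856 bp, or 23.4%, of the gene (chr8:92357796-92361456), at the border farther from Crnde, a noncoding RNA gene that lies next to Irx5. No WT peak overlapped it, and the nearest WT peak was 58096 bp from the gene. The Utx-cKO peak was weak: its total signal of 39566 stood at rank 7877 (percentile 11.6) and its maximum of 10.4 at percentile 34.7. If the lists share a scale, its total signal lay under 40307, the lowest in the WT list. Crnde itself had no peak in either genotype.

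Irx6, expressed in bipolar cells of the retina, was covered over its whole length (chr8:92674289-92680956) in both genotypes. The Utx-cKO peak (chr8:92656801-92685350) was 28550 bp wide and had a total signal of 261551 (rank 742, percentile 91.7). The WT peak (chr8:92660201-92682000) was 21800 bp wide and had a total signal of 243322 (rank 829, percentile 89.4). It lay wholly inside the Utx-cKO peak, which reached 3400 bp farther on the lower side and 3350 bp farther on the upper side. The strongest bin was the same, 839 bp below the gene's lower border, with a maximum of 52.5 in Utx-cKO and 60.5 in WT, the highest of the IrxB window in each list.

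Set out by place in the cluster, the corresponding genes compared as follows. The first genes, Irx1 and Irx3, had a peak directly outside an essentially unmarked body. The middle genes, Irx2 and Irx5, differed in Utx-cKO, where Irx5 had a peak over 23.4% of its body and Irx2 had none within 64155 bp, and neither had a peak within 50 kb in WT. The last genes, Irx4 and Irx6, had a peak over 87.9% and 100% of the body in both genotypes. With 2 clusters this is a description only.

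**Figure D2:**
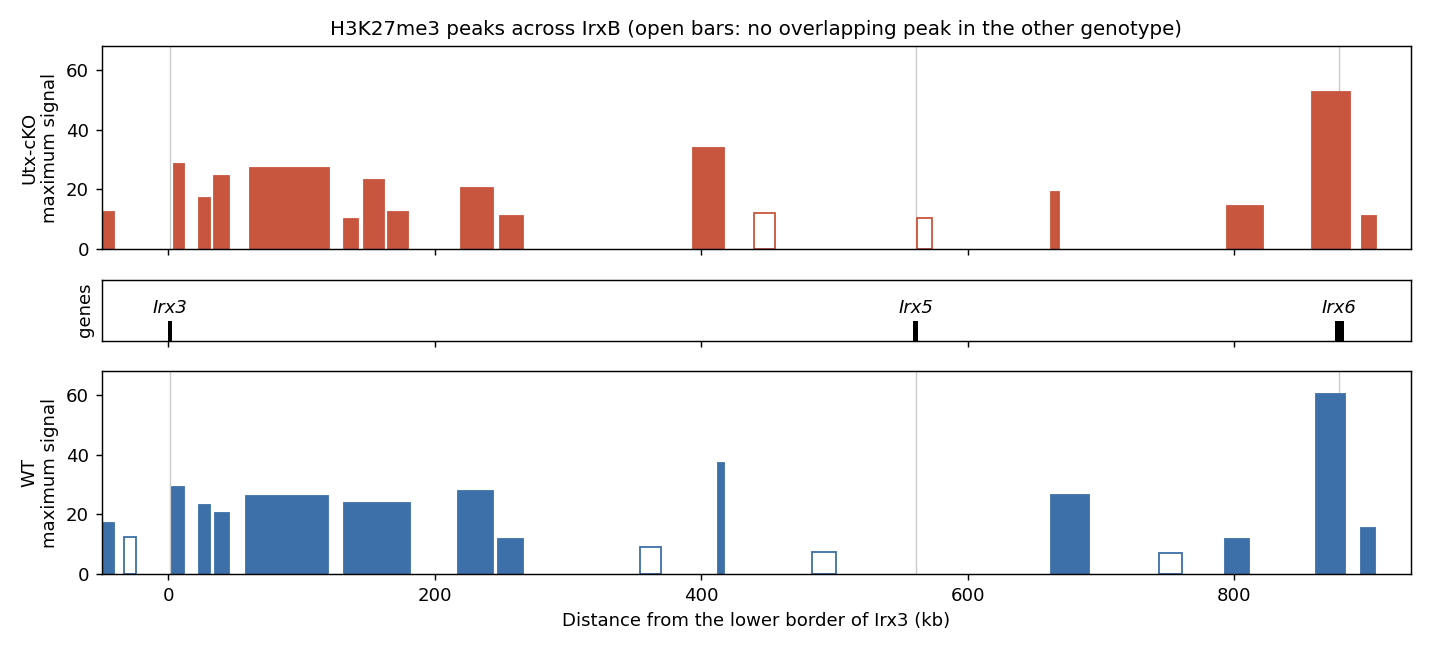
H3K27me3 peaks over the IrxB window, with distance from the lower border of Irx3 (kb) on the x axis and the maximum signal of each peak, on the scale of its own list, on the y axis; Utx-cKO is above the genes and WT below. Filled bars overlap a peak of the other genotype and open bars do not. The peak at Irx6 is the highest in both panels, and the Utx-cKO peak at Irx5 is open. Open bars are 2 of 17 Utx-cKO peaks and 4 of 17 WT peaks. Over the whole lists, 78.4% of Utx-cKO peaks and 88% of WT peaks overlap a peak of the other list.

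By length, most of the mark in the clusters lay between the genes, and IrxB carried more of it than IrxA. Gene bodies take up little of each window, so the first of these follows from length and shows no preference for the stretches between genes. By share of length, the bodies of Irx4 (87.9%) and Irx6 (100%) were covered more than any interval in both genotypes. The bodies of Irx1 and Irx2 had 0%, that of Irx3 0% in Utx-cKO and 0.13% in WT, and that of Irx5 23.4% in Utx-cKO and 0% in WT. In IrxB, 17 Utx-cKO peaks covered 300.3 kb (30.6% of the window) and 17 WT peaks covered 336.7 kb (34.3%). In IrxA, 12 Utx-cKO peaks covered 169.1 kb (12.0%) and 6 WT peaks covered 121.25 kb (8.59%). Peaks covered 5.60% of the autosomal gene span in Utx-cKO and 5.17% in WT, so both clusters stood above it in both lists.

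Among the stretches between genes, the most covered was the interval from Irx3 to Irx5, of which 207.8 kb (37.4%) was covered in Utx-cKO and 221.8 kb (39.9%) in WT. The widest peak of the clusters lay there, beginning inside Irx3os and running beyond its border at 91873722. It measured 59250 bp in Utx-cKO (chr8:91859801-91919050, percentile 94.6 by total signal) and 61350 bp in WT (chr8:91857151-91918500, percentile 94.5). The interval from Irx5 to Irx6 was covered over 61.4 kb (19.6%) in Utx-cKO and 77.7 kb (24.8%) in WT. In IrxA, the interval from Irx1 to Irx2 was covered over 102.85 kb (15.6%) in Utx-cKO and 92.3 kb (14.0%) in WT. The interval from Irx2 to Irx4 was covered over 50.1 kb (8.01%) in Utx-cKO and 12.95 kb (2.07%) in WT. The 4 Utx-cKO peaks there were weak, at percentiles 1.91 to 8.51 of their list, and the 1 WT peak stood at 11.1. If the lists share a scale, all 4 had total signals (36342 to 38509) below 40307, the lowest of the WT list. None of them remains at the common floor. The 50 kb below Irx1 held no peak in either list.

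**Figure D3:**
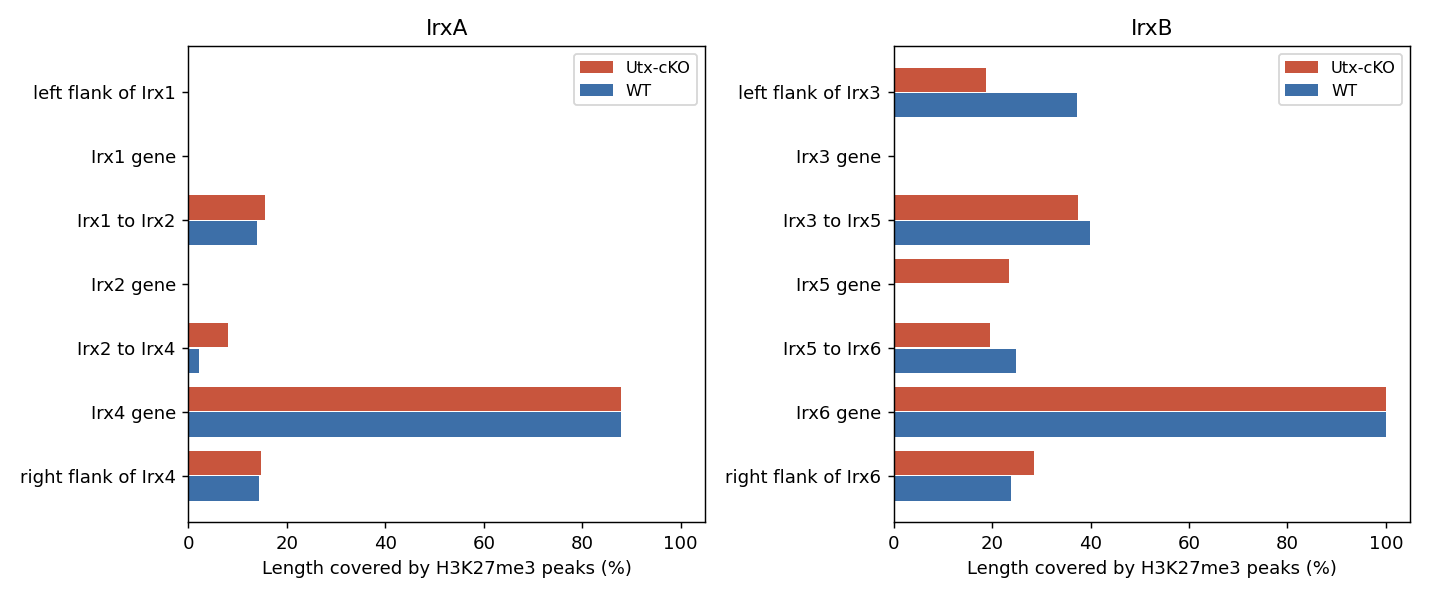
Percent of each gene, interval and 50 kb flank of IrxA and IrxB covered by H3K27me3 peaks, with Utx-cKO above WT in each pair of bars. The bodies of Irx4 (87.9%) and Irx6 (100%) are covered alike in both genotypes, Irx2 has no cover and Irx5 has cover in Utx-cKO only (23.4%). The interval from Irx2 to Irx4 has 8.01% in Utx-cKO and 2.07% in WT. Its 4 Utx-cKO peaks are weak, at or below percentile 8.51 of their list.

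The covered length was larger in Utx-cKO in IrxA and smaller in Utx-cKO in IrxB, and the IrxA difference turned round when weak peaks were left out. In IrxA the Utx-cKO list had 6 peaks and 47.85 kb more than the WT list. Of its 12 peaks, 7 had a total signal below the lowest of the WT list, again if the scale is shared, where 13.8% of the whole Utx-cKO list did. With the common floor, Utx-cKO kept 5 peaks over 78.4 kb against 6 peaks over 121.25 kb in WT, a difference of -42.85 kb, and with equal numbers of peaks the values were the same. Both of these settings could move the difference only toward WT. With the top 50%, which cut both lists, the IrxA difference was -32.15 kb, with 3 peaks in each list. At Irx1 this setting kept the WT domain of 38800 bp whole. Of the 2 Utx-cKO peaks over it, the one of 12850 bp was kept and the one of 16500 bp (percentile 37.4) was dropped. In IrxB the number of peaks was equal and the difference in covered length, Utx-cKO minus WT, was -36.35 kb. At the common floor it was -63.5 kb, with 14 peaks over 273.2 kb in Utx-cKO and 17 peaks over 336.7 kb in WT, and with equal numbers of peaks it was the same; both settings take peaks from the Utx-cKO list only, so they could not have turned it round. With the top 50% of each list it was -10.5 kb, with 8 peaks in Utx-cKO and 7 in WT.

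The length covered in both genotypes was 84.15 kb in IrxA, which was 49.8% of the Utx-cKO cover and 69.4% of the WT cover. In IrxB it was 235.2 kb, or 78.3% of the Utx-cKO cover and 69.9% of the WT cover. Over both windows, 21 of 29 Utx-cKO peaks (72.4%) overlapped a WT peak by at least 1 bp, where 78.4% of the whole list did, and 18 of 23 WT peaks (78.3%) overlapped a Utx-cKO peak, where 88% did. These shares were below those of the whole lists, with few peaks behind them. By cluster, the Utx-cKO counts were 6 of 12 peaks in IrxA and 15 of 17 in IrxB. Only the share in IrxA was below that of the whole Utx-cKO list. The WT counts were 5 of 6 in IrxA and 13 of 17 in IrxB.

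The peaks without a counterpart ranked low, as such peaks did in the whole lists, where their median percentile of total signal was 18.3 in Utx-cKO and 17.4 in WT. In the clusters Utx-cKO had 8, at percentiles 3.09 to 47.5 (median 8.23), and 7 of them had a total signal below the lowest of the WT list, if the lists share a scale. The exception was a peak of 16000 bp between Irx3os and Crnde (chr8:92238051-92254050, percentile 47.5). The WT list had 5, at percentiles 4.84 to 42.6 (median 18.7), the strongest lying between Irx1 and Irx2 (chr13:72357851-72377150). Peaks with a counterpart had a median percentile of 55.0 in Utx-cKO and 56.5 in WT.

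**Figure D4:**
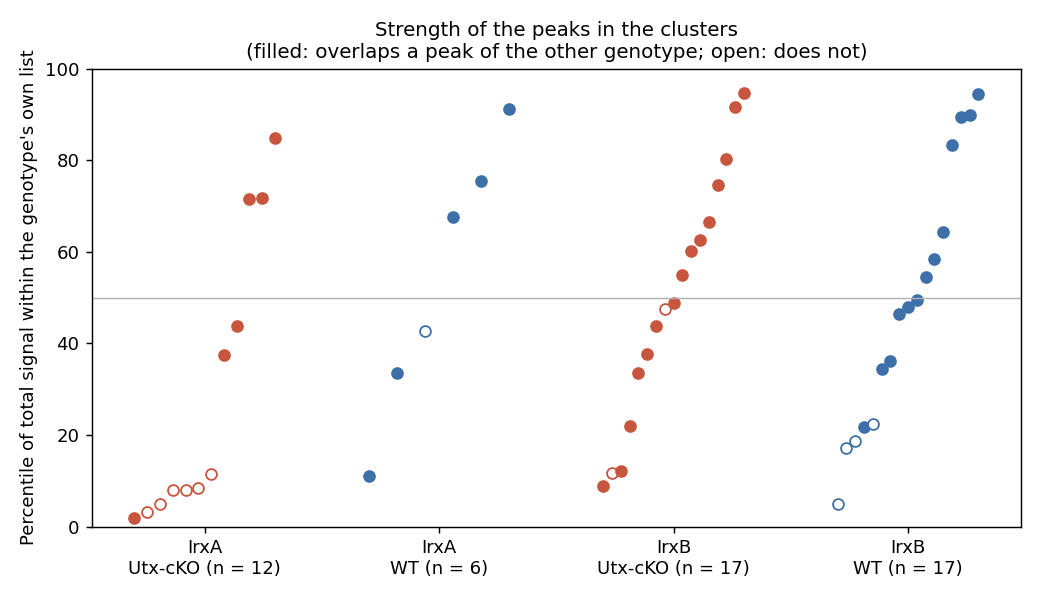
Percentile of total signal within its own list for each peak of the IrxA and IrxB windows, sorted from low to high within a group, with Utx-cKO left of WT in each cluster and a line at the middle of the list. Open points, which overlap no peak of the other genotype, lie at or below percentile 47.5 in Utx-cKO and 42.6 in WT; the 6 open Utx-cKO points of IrxA lie at or below 11.5.

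Where a peak of one list met a single peak of the other, borders often fell close together. There were 16 such pairs, 4 in IrxA and 12 in IrxB. Of their 32 borders, 16 (50%) differed by at most 500 bp, against 36.2% over the 4534 pairs of all autosomes. The median distance was 475 bp in the clusters and 1450 bp over autosomes. The strongest bins lay within 500 bp of each other in 9 of the 16 pairs (56.2%), near the 53.5% of autosomal pairs (2424 of 4534). They were the identical bin in 3 of the 16 pairs, beside 563 of the 4534 autosomal pairs, and 3 pairs are too few to set these shares apart. These 3 lay at Irx3, at Irx6 and between Irx3 and Irx5 (chr8:92213351-92213400). The last of them was 23450 bp wide in Utx-cKO (chr8:92192451-92215900) and 4500 bp in WT (chr8:92211451-92215950). Its upper borders were 50 bp apart, with maxima of 33.7 in Utx-cKO and 37.1 in WT. A peak between Irx5 and Irx6 differed the other way: it began at 92460951 in both lists and was 6300 bp wide in Utx-cKO and 28450 bp wide in WT.

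Few domains were in pieces in the other list, and the numbers are too small to read a direction from. Besides the domain at Irx1, a WT domain of 49800 bp between Irx3 and Irx5 (chr8:91930101-91979900) overlapped 3 Utx-cKO peaks. These covered 81.5% of it, with gaps of 4450 and 3100 bp between them. The domain holds the noncoding gene LOC115486949. In all, 2 of 23 WT peaks overlapped more than 1 Utx-cKO peak, where 7.08% of the whole WT list did, and 0 of 29 Utx-cKO peaks overlapped more than 1 WT peak, where 5.17% of the Utx-cKO list did.

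Noncoding genes in the IrxB window were marked alike in both genotypes, and those in the IrxA window were not marked. Of 9 long noncoding RNA genes in the IrxB window, the same 4 carried a peak at an end or start in each genotype: Irx3os, Gm39223, LOC115486949 and Gm28516. Irx3os, which spans 70387 bp next to Irx3, was covered over 56.7% in Utx-cKO and 59.9% in WT. Gm28516 and LOC115486949 were covered completely in both. Of 8 long noncoding RNA genes in the IrxA window, 0 were marked in either list. The share of all long noncoding RNA genes marked by this rule was not computed. Peaks covered 30.6% of the IrxB window in Utx-cKO and 34.3% in WT, so the counts describe these genes only. Some of these genes, such as Gm39223, were matched to no start, and either annotated end was used for them. An RNA gene and the Irx gene beside it can share a peak. In both lists the peak at Irx3 also lay over the lower border of Irx3os (91803336).

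Protein-coding neighbours were marked in 1 case, where the share over all protein-coding genes was 15.7% in Utx-cKO and 14.6% in WT. Of the 12 genes that made up the 3 nearest on either side of each cluster, only Adamts16, a secreted metalloprotease 1116 kb below Irx1, was marked, in both genotypes (20.7% covered in Utx-cKO, 18.6% in WT). On the other side of IrxA, Ndufs6 and Mrpl36, which encode mitochondrial proteins, and Lpcat1, a lipid acyltransferase, had no peak in either list, and the same held for Mmp2, Lpcat2 and Capns2 above IrxB. Fto had a peak inside the gene over 9.05 kb in Utx-cKO and 15.0 kb in WT, but was not called marked. Between Fto and the IrxB window a WT domain of 61700 bp (chr8:91677101-91738800) stood at percentile 94.9 of its list. Inside that domain, within 100 kb of Irx3, the Utx-cKO list had a peak of 11950 bp (chr8:91707101-91719050) at percentile 72.2.

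The other TALE homeobox genes are those of the Meis, Pbx, Pknox and Tgif families and Mkx, which are cofactors of Hox proteins or related regulators. Of these 12 genes, 3 had the mark in each genotype, and they were the same: Meis2, a Hox cofactor of limb and brain, Pknox2, and Mkx, a tendon factor. That share of 25% stands beside 15.7% of all protein-coding genes in Utx-cKO and 14.6% in WT. The other 9 were not marked in either list. By total signal, the strongest peak at Meis2 stood at percentile 85.5 in Utx-cKO and 43.0 in WT. The peak at Pknox2 stood at 84.2 in Utx-cKO and 87.1 in WT, and that at Mkx at 94.6 in Utx-cKO and 93.7 in WT.

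The Iroquois genes were set beside 3 other homeobox groups, and their median cover lay above that of the other TALE genes and below that of the Dlx and HoxD groups. Of the 6 genes Dlx1 to Dlx6, regulators of forebrain and jaw, 5 were marked in both genotypes, as were all 10 genes of HoxD with Evx2, which pattern limb and trunk. The median share of the 100 kb around the gene that was covered was 22.7% in Utx-cKO and 24.3% in WT for the Irx genes. It was 4.67% in Utx-cKO and 7.10% in WT for the other TALE genes, and 50.6% in Utx-cKO and 32.7% in WT for Dlx1 to Dlx6. For HoxD with Evx2 it was 100% in Utx-cKO and 97.5% in WT, and over all autosomal protein-coding genes it was 0% in both. The 10 HoxD genes with Evx2 shared 1 peak in each list, of 178400 bp in Utx-cKO and 126850 bp in WT. The 5 marked Dlx genes had 4 distinct peaks in each list. The marked Irx genes each had a peak of their own, 5 in Utx-cKO and 4 in WT. Irx genes lie at least 312.8 kb apart, and no peak of their windows was wider than 61350 bp, so they could not share one. With 50 kb on either side, 92.9% of the HoxD span was covered in Utx-cKO and 91.4% in WT. The spans are of unequal length, 212 kb for HoxD and 1411 and 982 kb for the Irx clusters, so their cover cannot be set against each other at a like scale.

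**Figure D5:**
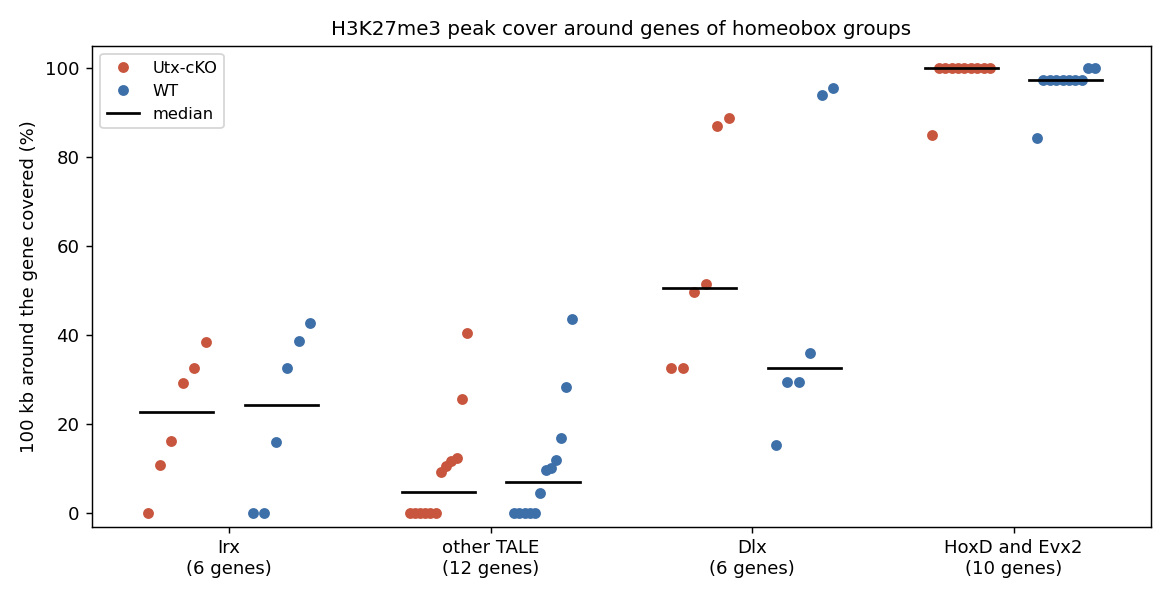
Percent of the 100 kb around each gene covered by H3K27me3 peaks, for 4 groups of homeobox genes, with Utx-cKO left of WT; points are genes and the line is the median of a group. The Irx genes reach at most 38.4% in Utx-cKO and 42.7% in WT, with medians above those of the other TALE genes and below those of Dlx1 to Dlx6 and of HoxD with Evx2.

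Among the Irx genes, the order of cover over the 100 kb around the gene was Irx6 (38.4%), Irx3 (32.5%), Irx1 (29.3%), Irx4 (16.1%), Irx5 (10.9%) and Irx2 (0%) in Utx-cKO. In WT it was Irx3 (42.7%), Irx1 (38.8%), Irx6 (32.6%), Irx4 (16.0%), and Irx2 and Irx5 (both 0%). Without replicates it cannot be said which neighbours in that order differ. Genes outside the windows with the most similar values were found by the mean absolute difference of 4 numbers, the cover of the 100 kb and the percentile of the peak at the start in each of the 2 lists. They were Dnph1 (2.33 percentage points) and Asic4 (2.46) for Irx1, H2-Q2 (3.50) and Wfdc13 (4.05) for Irx3, Sstr1 (0.608) and Rtel1 (1.34) for Irx4, Serp2 (0.652) and Gzmn (0.667) for Irx5, and Fhl2 (1.32) and Kcnip1 (1.5) for Irx6. Irx2 had 0 for all 4 numbers, as did 13768 other protein-coding genes, so none is named.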

How the data were processed

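CUT&RUN peaks of H3K27me3 were analysed from 2 lists, 1 per genotype, each pooled from 3 female animals. Per the file headers, the authors called peaks with SEACR (spelled SECAR) on merged data of a group. Total and maximum signal are the peak caller's score, as deposited; no source used here states their scale, the SEACR mode or its threshold. The builds mm10, GRCm38 and sacCer3 and the tools deepTools, bedtools 2.27.1, SAMtools 1.9 and Bowtie2 2.3.4.3 are named, per the submitters' processing notes. Signal was therefore ranked within a list, apart from the common floor (the lowest WT total), which assumes a shared scale. The lists have no column names, and SEACR's own column order was assumed.

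Peaks were intersected in Python 3.11.15 (pandas 2.3.3) with RefSeq genes of GRCm38.p6 and its promoter table. The interval code was tested on simulated peaks. Peaks touching a window were counted whole and their cover was clipped to it. Since lists pool animals, no test, interval or replicate comparison was made, and IgG and per-library values were not analysed here. A further homeobox group is not reported here. Named genes are the 6 members, marked TALE genes, the nearest neighbours and the 2 genes nearest in value per member; the peaks and noncoding genes singled out in the text were chosen after their values were seen. The members and gene lists were chosen with earlier results of these data known. Alternatives were other flanks and distances, either gene end, merging within 5 kb, the top 50%, a common floor, equal numbers of peaks and stricter overlap.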

Additional observations from a re-analysis of the deposited data

How the results depend on the processing

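Of 58 alternative values, 38 stayed within 1.5 times the reported value without a change of sign, 15 moved further and 5 changed sign. Counts and shared lengths have no sign to change. The fall from 5 to 4 marked Irx genes in Utx-cKO, where Irx5 lost its call, is among the 38. It occurred at the common floor, with equal numbers and with the top 50%. The reported IrxB difference in peaks was 0, so it could not change sign. The IrxA excess in Utx-cKO did not hold when weak peaks were removed. At the common floor and with equal numbers of peaks the difference was -1 peak and -42.85 kb. Both settings took peaks from the Utx-cKO list only, so the difference could move only toward WT. With the top 50%, which cut both lists and dropped the second Utx-cKO peak at Irx1, the difference was 0 peaks and -32.15 kb. It was 28.65 kb with 100 kb flanks, where a WT peak enters. The IrxB difference in cover was -64.5 kb with 100 kb flanks, -63.5 kb at the common floor and with equal numbers, and -10.5 kb with the top 50%, while its difference in peaks was 1 without flanks, -2 after merging, 1 with the top 50%, and -3 at the common floor and with equal numbers. With the top 50% the shared length was 47.65 kb in IrxA and 137.7 kb in IrxB, as fewer peaks enter. A peak was also required on the start itself (0 bp), or on either annotated end for Irx1, Irx5 and Irx6, which were matched to no start. Then 2 genes were marked in Utx-cKO (Irx5, Irx6) and 2 in WT (Irx3, Irx6). With 50% of both peaks covered, 14 of 29 Utx-cKO peaks and 14 of 23 WT peaks of the windows had a counterpart. The share of the whole lists under this rule was not computed. No paired analysis was possible because each list pools the animals of a genotype, and for the same reason no replicate could be left out. Sequencing depth is unknown, so a missing peak says only that none was listed.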
